A study of Danio rerio with 6 samples.

Results

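The genes described here are 8 named after proteins that act in the upstream, activating part of the complement cascade or control it: c1qc, c1s.1, c4, c4b, c3a.1, cfd, cfp and cfi. They were taken by symbol from the platform annotation, counting only probe sets with a single symbol, which gave 9 of the 15502 probe sets tested (2 for c3a.1 and 1 for each other gene), and 8 of 8793 named genes. One group of embryos had been kept in 5 µM 11,12-EET, a lipid mediator that cytochrome P450 enzymes form by epoxidising arachidonic acid, and the other in DMSO, the solvent. All embryos were wild-type AB zebrafish of 36 h post fertilisation, raised at 28 degrees, exposed from 24 h onward (12 h in all), dechorionated with pronase and homogenised whole as pools. Each group had 3 arrays labelled as biological replicates, and the labels give 25 embryos per treatment group. Nothing states that the replicates came from separate clutches, so p-values measure the spread between these 6 pools, which may be partly technical.

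Complement is a set of blood-borne proteins that tag and damage foreign or dying cells. In mammals, where these roles were worked out, the classical pathway starts when C1q binds a surface and its partner protease C1s cuts C4. The alternative pathway starts from C3 itself, with factor D as its protease and properdin as its stabiliser, while factor I shuts both pathways down by cutting C3b and C4b. The liver is a main source of C1s, C4, C3 and factor I in mammals, whereas C1q comes mainly from macrophages and properdin mainly from white blood cells.

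None of the 8 upstream complement genes passed the test for a change with EET. Over all probe sets limma called 0 at an adjusted p under 0.05, which is 0% of 15502, and 0 of the 9 complement probe sets; at an unadjusted p under 0.05 it gave 817 probe sets (5.27%) and 1 of the 9, that of c1qc. The largest difference of means among the 9 probe sets lay between replicates: cfp, the properdin gene, was 7.22-fold higher on the replicate 3 arrays of both groups than on the other 4. The best measured member, cfi, differed by a log2 value of 0.06 between the groups, with a 95% interval of -0.25 to 0.37.

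The 6 arrays were on a common scale, with medians of 4.81 to 4.82, but a principal component analysis of the brighter probe sets placed both replicate 3 arrays away from the remaining 4 along its leading axis, which held 44.0% of the variance. The next axis, with 19.6% of the variance, set the EET arrays (4.60 to 9.31) apart from the DMSO arrays (-8.67 to -5.51). Neither axis was tested. Here "brighter" means a mean at or above the median level of 4.81, which 4 of the 9 complement probe sets reach, those of c4b, cfd, cfp and cfi. For c4b this rests on its EET mean, 5.16, since its DMSO mean, 4.65, is below the median level. For cfp it rests on replicate 3, since its mean over the other 4 arrays, 4.07, is below the median level. Because replicate 3 stood apart, each member's difference is also given in the replicate 3 pair alone and in the other 4 arrays. The actin controls, whose 3' signal minus 5' signal is a measure of RNA integrity, gave 2.14 to 2.30 in EET and 1.74 to 2.01 in DMSO, without overlap; GAPDH gave 0.94 to 1.27 in EET and 0.876 to 1.02 in DMSO. The part of RNA quality in the values below was not tested. Abundant yolk and liver transcripts expected of a whole embryo were present, such as the transferrin gene tfa at 11.39 ± 0.14 in EET and 11.27 ± 0.005 in DMSO (SD, n = 3). In whole-embryo RNA, fewer cells of a type and less RNA per cell cannot be told apart. All levels are log2 values of a probe set, and they are compared between arrays and not between genes, since probe sets differ in how strongly they bind.

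Of the classical pathway, c1qc encodes the C chain of C1q, the subunit that recognises surfaces. Its level was 2.27, 2.90 and 1.572 in the EET pools, against 0.998, 0.255 and 1.569 in the DMSO pools. The groups did not overlap, but only by 0.003: the lowest EET array and the highest DMSO array were the replicate 3 pair, which gave nearly the same value. A lack of overlap was met by 1 of the 9 complement probe sets and by 11.7% of all probe sets. The log2 difference was 1.31 ± 0.47 (SE; limma, unadjusted p = 0.0361, adjusted p = 0.930), with a 95% interval of 0.12 to 2.49. It was 1.96 in the 4 arrays of replicates 1 and 2. A batch term for replicate 3 widened the 95% interval to -0.10 to 2.71. The probe set is dim, at the 13.1th percentile of mean level, where the median SD between replicates was 0.982, and it is not known to lie above background. With 32 added on the linear scale, which damps dim signals, its difference was 0.12 ± 0.06.

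Because C1q is a macrophage product in mammals, macrophage markers are given beside it. Of 14 measured markers 7 lay above DMSO and 7 below it. The median of their log2 differences was 0.02, against 0.01 over all 8793 genes. The summed linear signal of the 14 was 3959 to 4572 in EET and 4210 to 4466 in DMSO, but apoeb, which other embryonic tissues also express, made up 87.7% of it. Without apoeb the sums were 481 to 620 in EET and 422 to 544 in DMSO. Most of that remainder came from ctss2.1, which averaged 8.45 ± 0.35 in EET and 8.32 ± 0.33 in DMSO (SD, n = 3). Only 4 of the 14 markers reached the median level: apoeb, ctss2.1, lcp1 and coro1a. The macrophage growth factor receptor gene csf1ra averaged below 0, at -0.23 ± 0.84 in EET and -0.72 ± 0.46 in DMSO, while the scavenger receptor gene marco averaged 2.48 ± 0.10 in EET and 1.72 ± 0.74 in DMSO (SD, n = 3). Others lay lower: grna, a granulin gene, averaged 2.87 ± 0.25 in EET and 3.37 ± 0.21 in DMSO, without overlap (limma, unadjusted p = 0.0378, adjusted p = 0.930), and cd74a differed by -0.78. None of csf1ra, marco, grna and cd74a is known to lie above background, and the part of the markers in the c1qc values was not tested. No measured marker was called.

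The probe set of c1s.1, a gene named after the protease that cuts C4, was at the bottom of the scale. It read -0.83, -2.30 and -1.40 in the EET pools, against -1.01, -1.05 and -1.33 in the DMSO pools, and its mean lay at the 0.216th percentile of all probe sets. RefSeq lists this gene as a long non-coding RNA in the GRCz12tu assembly. The DMSO values lay within the EET range, and the difference was -0.38 ± 0.39 (SE, limma adjusted p = 0.943). Its paralog c1s.2 also averaged below 0, at -1.16 ± 0.32 in EET and -0.84 ± 0.19 in DMSO (SD, n = 3).

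C4, the protein that C1s cuts and whose larger fragment bonds to the target surface, is represented by 2 genes, c4 and c4b, with 1 probe set each. The level of c4b was 4.97, 5.35 and 5.14 in the EET pools, against 4.52, 4.32 and 5.12 in the DMSO pools. Every EET array thus lay above DMSO replicates 1 and 2, whereas DMSO replicate 3 lay inside the EET range. The difference was 0.50 ± 0.24 (SE), a 1.42-fold higher mean in EET with a 95% interval of 0.928-fold to 2.16-fold (limma, adjusted p = 0.930 over all probe sets and 0.733 among the brighter ones). In replicates 1 and 2 it was 0.74, and in the replicate 3 pair 0.02. Whether these 2 values differ was not tested. The c4b difference was 0.74 without DMSO replicate 3 and 0.51 without EET replicate 3. Its small value in the pair thus came with a DMSO replicate 3 above the other DMSO arrays. For c1qc leaving out either replicate 3 array raised the difference, to 1.62 without DMSO replicate 3 and 1.64 without EET replicate 3.

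For c4 the values were 3.31, -0.89 and 2.11 in the EET pools, against 2.82, 2.78 and 2.30 in the DMSO pools. A single array, EET replicate 2, lay far below the other 5. The difference of -1.12 ± 1.08 (SE, limma adjusted p = 0.943) rests on it: without that array it was 0.08 ± 0.42. The 95% interval over all 6 arrays, -3.85 to 1.60, leaves the direction of c4 undetermined. The same array also gave the lowest c1s.1 value and the highest values of c1qc, c4b and both c3a.1 probe sets.

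**Figure D1:**
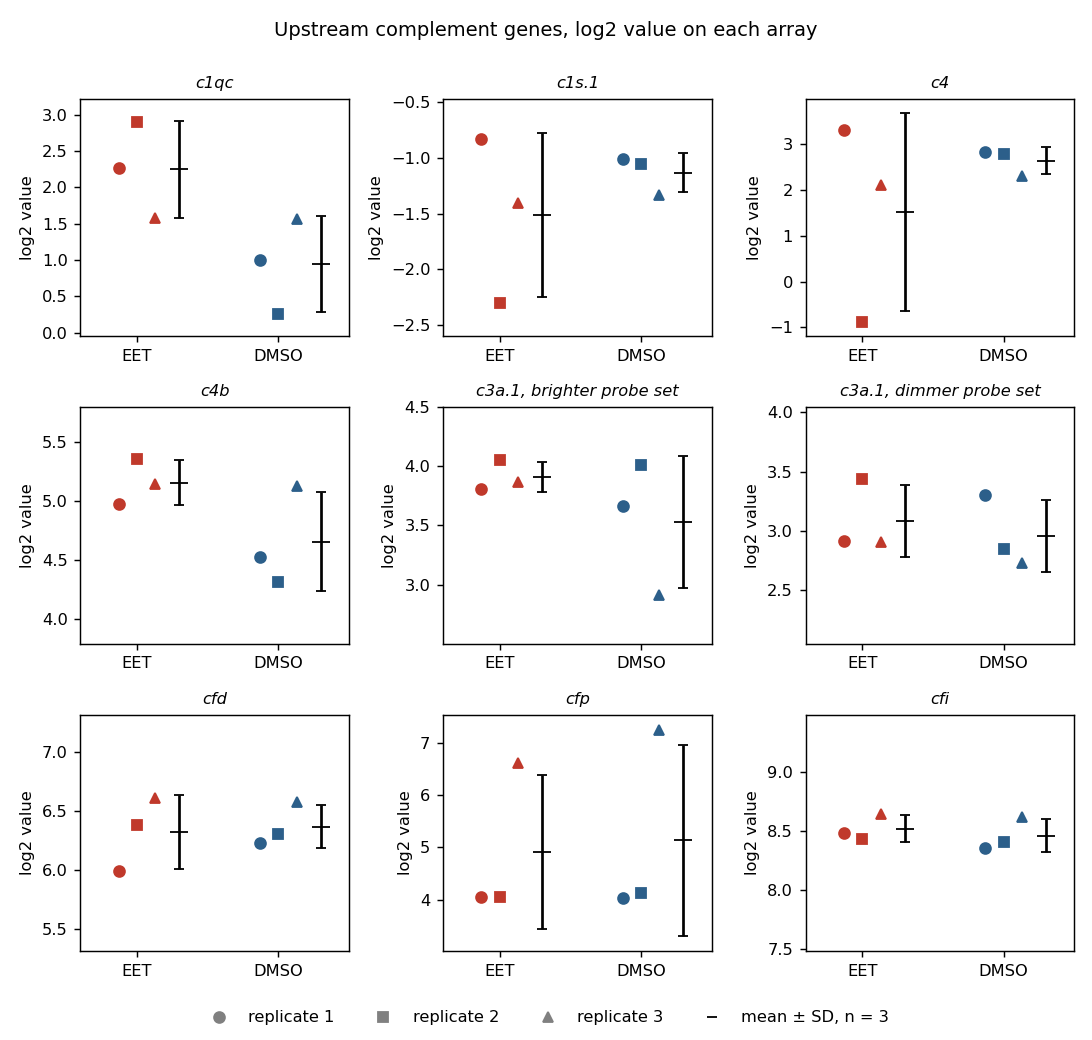
Log2 value of each upstream complement probe set on each array, EET left of DMSO, with 1 panel per probe set, its own vertical range, the replicate number as the point's shape, and the mean ± SD (n = 3) as a black bar. The cfp panel shows replicate 3 of both groups at 6.61 and 7.24 and the other 4 arrays near 4.07; the c4 panel shows the single low EET array at -0.89.

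C3 is the protein on which all activation routes meet, and c3a.1 is one of 5 c3a genes that RefSeq places within a short run of genes on one chromosome. Such copies can share sequence, and the probe sequences were not used here, so how far each probe set also reads the other copies is uncertain. The brighter probe set of c3a.1 read 3.81, 4.05 and 3.86 in the EET pools, against 3.66, 4.01 and 2.91 in the DMSO pools. Its DMSO replicate 3 was lower than all other arrays, and the remaining 5 lay between 3.66 and 4.05. The difference was 0.38 ± 0.30 (SE, limma adjusted p = 0.932); without DMSO replicate 3 it was 0.07. The dimmer probe set read 2.91, 3.44 and 2.90 in the EET pools, against 3.30, 2.84 and 2.73 in the DMSO pools. Here the ranges overlapped, and the difference was 0.13 ± 0.23 (adjusted p = 0.968). In both probe sets EET replicate 2 was the highest array and DMSO replicate 3 the lowest, but the arrays between them stood in different orders.

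Factor D, encoded by cfd, is the protease that cuts factor B and so builds the C3-cleaving enzyme of the alternative pathway. Its level was 5.99, 6.38 and 6.61 in the EET pools, against 6.23, 6.30 and 6.57 in the DMSO pools, so all DMSO arrays lay within the EET range. The difference was -0.04 ± 0.20 (SE, limma adjusted p = 0.988). The 95% interval ran from 0.688-fold to 1.37-fold. In both groups replicate 3 was the highest array.

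Properdin, encoded by cfp, prolongs the life of that enzyme on a surface. Its level was 4.06, 4.06 and 6.61 in the EET pools, against 4.04, 4.13 and 7.24 in the DMSO pools. The 4 arrays of replicates 1 and 2 lay between 4.04 and 4.13 in both treatments, and both replicate 3 arrays lay far above them. The mean of the replicate 3 arrays was 6.92, against 4.07 for the other 4, a log2 gap of 2.85. From the highest gap downward cfp had rank 20 of all 15502 probe sets. This rank describes the arrays and carries no test, since replicate 3 was singled out from the same values.

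The treatment difference of cfp was -0.23 ± 1.16 (SE, limma adjusted p = 0.988), and its sign turned when single arrays were left out: 0.82 without DMSO replicate 3, 0.197 without EET replicate 1 and 0.199 without EET replicate 2. It was -1.08 without EET replicate 3. With replicate 3 as a batch term the standard error fell to 0.16, and the 95% interval narrowed to -0.66 to 0.21 (adjusted p = 0.828, against 0.828 to 0.996 over its 16 alternatives). In replicates 1 and 2 alone the difference was -0.03, and in the replicate 3 pair -0.63.

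The 3 genes whose profile over the 6 arrays was closest to that of cfp were lgals2b, epdl2 and add1, of 6034 brighter probe sets with 1 symbol. Closeness was the root mean square difference of mean-centred log2 values, 0.411 for lgals2b, 0.412 for epdl2 and 0.419 for add1. By name lgals2b encodes a galectin, a sugar-binding lectin, and add1 an adducin, a protein of the membrane skeleton. Each was higher on both replicate 3 arrays than on the other 4, by 2.60 for lgals2b, 2.11 for epdl2 and 1.98 for add1. Picking genes by closeness to cfp builds in this gap, so it carries no test. The treatment differences were 0.52 ± 1.06 for lgals2b, 0.06 ± 0.86 for epdl2 and -0.09 ± 0.81 for add1 (SE).

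Factor I, encoded by cfi, is the protease that inactivates C3b and C4b and so restrains both pathways. Its level was 8.48, 8.43 and 8.64 in the EET pools, against 8.35, 8.41 and 8.62 in the DMSO pools. This is the brightest and steadiest of the 9 probe sets, with an SD of 0.11 in EET and 0.14 in DMSO (n = 3). The difference of 0.06 ± 0.12 (SE, limma adjusted p = 0.972) corresponds to a 1.04-fold higher mean in EET, and the 95% interval runs from 0.842-fold to 1.29-fold. A doubling or a halving of cfi transcript therefore lies outside the interval. It was 0.08 in replicates 1 and 2 and 0.03 in the replicate 3 pair, and replicate 3 was again the highest array of each group.

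**Figure D2:**
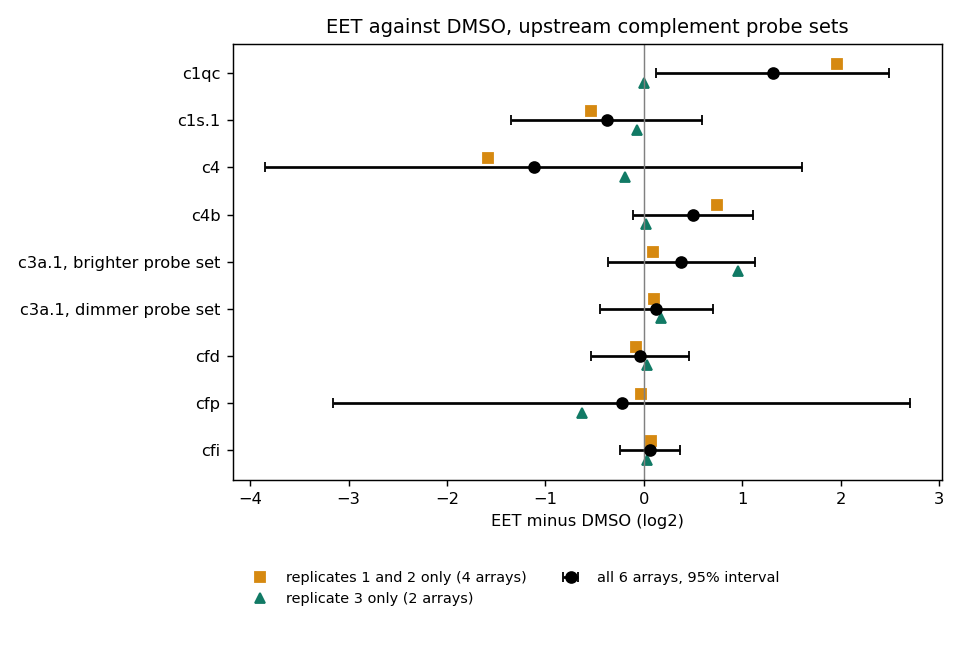
Log2 difference of EET minus DMSO for each upstream complement probe set: black points are all 6 arrays with limma's 95% interval, orange squares replicates 1 and 2, green triangles the replicate 3 pair. The interval of c1qc (0.12 to 2.49) lies above 0 before adjustment and the other 8 include 0; c1qc and c4b are near 0 in the replicate 3 pair.

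Replicate 3 lay apart for other members besides cfp. Both replicate 3 arrays exceeded the other 4 for cfd, cfi and cfp, which is 3 of the 9 complement probe sets; the same held for 10.5% of all probe sets. The gap was 0.37 for cfd and 0.21 for cfi, a 1.29-fold and a 1.16-fold higher mean on replicate 3. For cfi it exceeded the treatment difference of 0.06. For c4b the gap was 0.34, without separating the arrays. On the lower side lay the probe sets of c3a.1, at -0.49 and -0.31, while c1qc and c1s.1 were at -0.04 and -0.07.

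**Figure D3:**
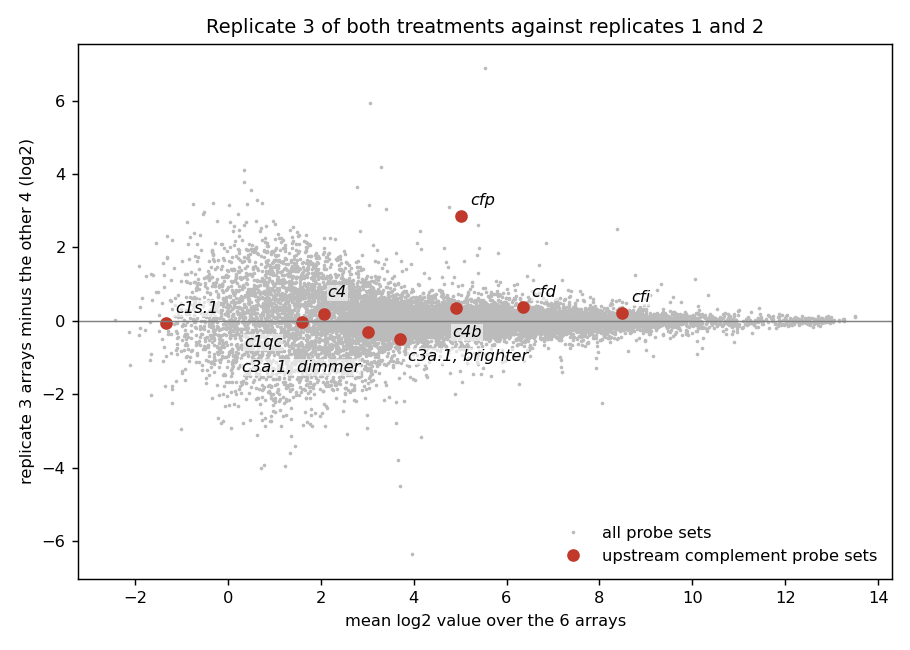
Mean of the 2 replicate 3 arrays minus the mean of the other 4 (log2) against the mean log2 value over the 6 arrays, for all 15502 probe sets (grey) and the 9 upstream complement probe sets (red). The point of cfp at 2.85 is among the highest, at rank 20 of all probe sets, while the other 8 lie between -0.49 and 0.37.

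Taken as a list by the brightest probe set of each gene, 4 of the 8 lay above DMSO and 4 below it. Their median log2 difference was 0.01, against 0.01 over all 8793 genes, of which 51.4% were higher. The list's differences spanned -1.12 (c4) to 1.31 (c1qc), and both ends belong to dim probe sets. Among the 4 brighter probe sets the differences ran from -0.23 (cfp) to 0.50 (c4b).

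Other complement genes were listed to set the 8 in their pathway. Of 48 further upstream genes and receptors 6 were measured and 0 called. Of these 4 lay above DMSO and 2 below it, and the median difference was 0.10. They were c1s.2, the mannose-binding lectin gene mbl2 and its protease gene masp2, c3a.6, the C1 inhibitor gene serping1 and the factor H-like gene cfhl4. The largest difference among them was that of c3a.6, another C3 gene, at 0.40 ± 0.23 (SE, limma adjusted p = 0.932). Its level was 5.99 ± 0.18 in EET and 5.60 ± 0.40 in DMSO (SD, n = 3). The factor H-like gene cfhl4 differed by 0.15 ± 0.18 and masp2 by -0.05 ± 0.16 (SE). For mbl2 and serping1, 2 of these 6, both replicate 3 arrays were above the other 4, by 1.83 for mbl2 and 0.58 for serping1. The same held for 10.5% of all probe sets. The probe set of mbl2 is dim, at the 8.21th percentile of mean level, and is not known to lie above background.

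Of 16 listed genes of the terminal pathway, whose products form the membrane attack complex or bind it, 7 were measured. Of these 5 lay above DMSO and 2 below it, and the median difference was 0.14. Over all probe sets 0 of the 7 were called. Among the brighter probe sets, where limma called 6 of 7751 (0.0774%), 2 of the 5 terminal genes in that set rose: c6.2, a C6 gene, by 1.41 ± 0.13 (SE, adjusted p = 0.00993), and clu, the clusterin gene, by 1.52 ± 0.16 (SE, adjusted p = 0.0205). In the same set of brighter probe sets 0 of the 4 upstream probe sets were called, with adjusted p from 0.733 to 0.980. Of these 4, c4b is in that set only through its EET mean and cfp only through its replicate 3 arrays. The remaining terminal genes were c7b, c8b, c8g, c9 and vtnb, with differences from -0.40 for c7b to 0.15 for c9. The difference between c6.2 or clu and the upstream genes was not tested.

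**Figure D4:**
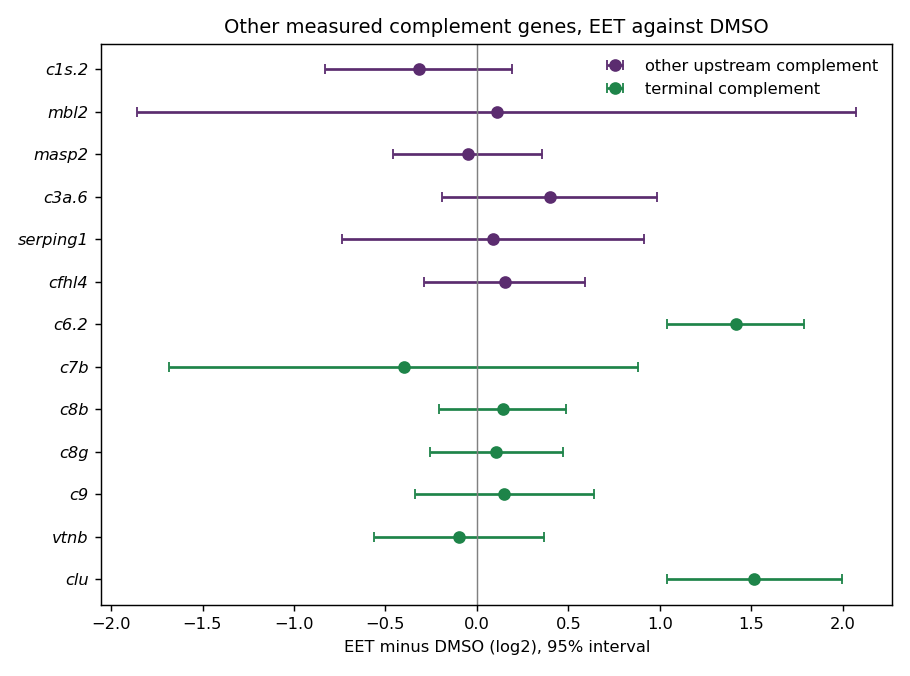
Log2 difference of EET minus DMSO with limma's 95% interval over all 6 arrays for the 6 other upstream (purple) and 7 terminal (green) complement genes measured, each by its brightest probe set. The intervals of c6.2 and clu lie above 1, and those of the other 11 genes include 0.

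Genes of tissues and programmes that supply complement were also counted. Of 23 measured liver markers 11 lay above DMSO and 12 below it, the median difference being 0.00. Their summed linear signal was 19132 to 19290 in EET and 18210 to 20042 in DMSO. Some of these genes, such as those of apolipoproteins, are also expressed around the yolk. The liver fatty acid binding protein gene fabp10a was dim, at 2.28 ± 0.99 in EET and 3.23 ± 0.47 in DMSO (SD, n = 3). Mammalian liver induces acute phase proteins together with complement in inflammation, and the acute phase list holds regulators as well as such proteins. Of its 16 measured genes 12 lay above DMSO and 4 below it, the median being 0.25, and 0 were called. The 4 below were the acute phase protein genes hp, fga, fgg and crp, with differences from -0.14 for hp and fga to -0.01 for crp. The list's median was 0.06 in the 4 arrays of replicates 1 and 2, and 0.29 in the replicate 3 pair. Only 7 of the 16 genes reached the median level, so dim probe sets weigh in these medians. In 5 of the 16 every EET array was above every DMSO array, against 6.37% of all genes. The largest differences among the 5 belonged to probe sets below the median level. These were socs3b at 1.09 ± 0.21, irg1l at 0.93 ± 0.24 and socs3a at 0.80 ± 0.27 (SE, limma adjusted p from 0.619 to 0.930). The brighter ones were cebpd, a transcription factor gene, at 0.29 ± 0.12 (SE, limma adjusted p = 0.930), and the fibrinogen gene fgb at 0.22 ± 0.11 (adjusted p = 0.930). In replicates 1 and 2 socs3a differed by 1.15, irg1l by 0.99, cebpd by 0.37 and fgb by 0.25. Their differences in the replicate 3 pair were smaller, at 0.11, 0.80, 0.14 and 0.17. That of socs3b was larger there, at 1.51 against 0.89 in replicates 1 and 2. Of 11 measured neutrophil markers 10 lay above DMSO and 1 below it, the median being 0.19. Over all 8793 genes 51.4% lay above DMSO, the share to set beside this count and that of the acute phase list. The 1 below was ncf1, at -0.30 ± 0.21 (SE, limma adjusted p = 0.932), a probe set below the median level. Whether these genes mark neutrophils alone in these embryos was not tested. The protease gene mmp9 differed by 0.97 ± 0.21 (adjusted p = 0.691). It counts as brighter only through its EET mean, 5.36, since its DMSO mean, 4.40, is below the median level. The 4 probe sets of mpx, the myeloperoxidase gene, disagreed: the brightest, which the count uses, differed by 0.18, and the others by 0.75, -0.49 and -3.08, the last with every EET array below every DMSO array (unadjusted p = 0.00108, adjusted p = 0.535). The list's summed linear signal was 1034 to 1174 in EET and 896 to 1062 in DMSO. The brightest marker, lyz, weighs most in it, at 8.80 ± 0.21 in EET and 8.70 ± 0.29 in DMSO (SD, n = 3). Another of the 11, cebpb, is also on the acute phase list. The part of the neutrophil list in the values of the 8 genes was not tested. Of 5 measured relatives that share the C1q domain 3 lay above DMSO and 2 below it, the median being 0.00, and 0 were called.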

How the data were processed

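The authors deposited 1 log2 value per probe set and array. Per the labels' protocols, biotinylated cRNA was made from 6 µg of total RNA by the Affymetrix protocol. Background correction, summarisation and scaling are not given in the sources used here. The log base was read from the values: hybridisation controls rose by 0.875 per doubling, where a natural log gives 0.693, and 13.63 as a natural log would exceed the scanner's 65535. Of 15617 probe sets 115 controls were left out. Symbols came from the platform annotation (10795 probe sets with 1, 135 with several, 4572 with none), updated by Entrez identifier in RefSeq (GRCz12tu), where 10711 matched and 1 changed. No detection calls were used. Positions are not printed, because the platform annotation states no build, and RefSeq served for names, biotype and gene order only. The number of arrays limits the precision.

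EET was compared with DMSO over all 15502 probe sets with limma 3.58.1 in R 4.3.3 (lmFit, eBayes, 2-sided, no covariates) and Benjamini-Hochberg adjustment. Intervals are per probe set and unadjusted. A gene in a list stands with its brightest probe set. The procedure was also run on simulated data with independent arrays, which lack the shared replicate 3 pattern and so cannot show how the fit handles it. Named were all members, list genes called or, for each list, the 2 brighter genes with the largest difference whose groups did not overlap, and the 3 genes most like cfp. Other genes (c1s.2, mbl2, masp2, serping1, cfhl4, c3a.6, c7b, c8b, c8g, c9, vtnb, csf1ra, marco, grna, cd74a, ctss2.1, lcp1, coro1a, mpx, lyz, cebpb, ncf1, apoeb, tfa, fabp10a, socs3a, socs3b, irg1l, hp, fga, fgg, crp, cbln11) were chosen after their values were seen. Members, lists and alternatives were chosen with earlier results of these data known. Deviations of same-numbered arrays from their group means correlated at 0.04 to 0.15 over all probe sets. The highest was that of the replicate 3 arrays, which correlated at -0.07 to -0.09 with the other numbers of the other group. Deviations within a group cancel out, so negative values beside a positive one are built in and say nothing further about pairing. The main fit does not pair the arrays, because the labels do not say that a number marks a shared clutch.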

Additional observations from a re-analysis of the deposited data

How the results depend on the processing

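None of the 9 upstream complement probe sets was called in any alternative fit that kept it or with the threshold at 0.10. These were 16 fits for c4b, cfd, cfp and cfi, 15 for c3a.1 and 14 for c1qc, c1s.1 and c4, since filters on dim probe sets left them out. The lowest adjusted p was 0.733, for c4b among the brighter probe sets, a set it enters through its EET mean. Over all probe sets, 0 were called, and 1 at an adjusted p under 0.10, 1 with array weights, 1 after median centring, 2 with log2(2^value + 32), 3 with trend and robust, and 6 without probe sets below the median level. With the replicate block, the replicate 3 batch term, quantile normalisation, without the dimmest 25%, with the replicate 3 pair removed or with single arrays removed, 0 were called. The replicate block, which cannot move a mean difference in this balanced design, called 0 of the 9 complement probe sets and took the unadjusted p of c1qc to 0.105, with a 95% interval of -0.47 to 3.08. Same-numbered arrays correlated at 0.18 to 0.55 among the brighter probe sets, where replicates 1 and 2 correlated better with each other's number. Part of the values for replicates 1 and 2 is built in, since deviations within a group cancel out. With 1 array left out, differences ran from 0.963 to 1.64 for c1qc, -0.719 to 0.0143 for c1s.1, -2.02 to 0.0770 for c4, 0.333 to 0.735 for c4b, 0.0718 to 0.618 and -0.0498 to 0.299 for the brighter and dimmer c3a.1 probe sets, -0.184 to 0.124 for cfd, -1.08 to 0.824 for cfp and -0.00362 to 0.139 for cfi. The sign turned in 9 of 136 member values, all with 1 array left out. Part of the 136 could not turn. Neither block nor batch term moves a mean difference here, and neither do trend and robust or the filters on dim probe sets. The share of 9 in 136 is thus lower than the share among fits with 1 array left out.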

Other observations

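The gap of cfp on replicate 3 was set beside its neighbours in the RefSeq gene order, a comparison chosen after the values were seen. Of the 10 nearest measured genes, 5 on each side, 1 was higher on both replicate 3 arrays than on the other 4 and 2 were lower. Over all 8793 genes 910 were higher and 941 lower in that way, so these counts do not set the neighbours apart. The higher one was ccdc22, by 0.31, and the lower ones were slc38a5b, by -0.38, and si:ch73-237c6.1, the gene next to cfp in that order, by -1.10. The others, among them mkrn4 and rpl10a, overlapped. Among the C1q domain relatives, cbln11 was also higher on both replicate 3 arrays, by 2.46, while its treatment difference was 0.48 ± 1.04 (SE).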
